A study of Mus musculus with 6 samples.

Results

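The family of S100 calcium-binding proteins was followed through 10 genes of its S100a branch: S100a1, S100a4, S100a6, S100a8, S100a9, S100a10, S100a11, S100a13, S100a14 and S100a16. They were chosen by symbol from the 24404 genes of the expression table, and with their levels and their differences between Klf5 LKO and control already known. No p-value is therefore given for them, and whether a member passed the test run over all genes is given as a description. S100 proteins are small calcium-binding proteins built on a pair of EF-hand motifs, which usually work as dimers. On binding calcium most of them expose a surface that grips a partner protein, so they pass calcium signals on to the cytoskeleton, membranes and enzymes, and some are also secreted. In liver they are better known from bile duct cells, stromal cells and leukocytes than from hepatocytes.

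RNA-seq had been made from biliary epithelial cells, the lining cells of the bile ducts inside the liver, of adult C57BL/6 mice. The Klf5 LKO group (3 libraries) carried the Alfp-Cre transgene and 2 floxed copies of Klf5, which codes for a zinc-finger transcription factor of epithelia. The control group (3 libraries) had the same floxed Klf5 and no Alfp-Cre, so an effect of Cre alone and of Klf5 loss cannot be told apart. Both groups had received the bile duct toxicant DDC (diethoxycarbonyl-dihydrocollidine) for 1 week, and uninjured cells are not part of the comparison. Alfp-Cre is driven by albumin and alpha-fetoprotein regulatory sequences and acts in the liver epithelium, that is in hepatocytes as well as bile duct cells. Whether each library stands for its own animal is not stated in the labels, so the errors below describe variation among libraries and could be technical in part.

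Values are normalised counts, that is reads per gene divided by 1 size factor per library. The libraries held 17161087 to 24784167 gene reads in Klf5 LKO and 11726934 to 17665210 in control. Klf5 itself had normalised counts of 977, 1192 and 1183 in Klf5 LKO libraries 1 to 3 and 2056, 2018 and 2316 in control libraries 1 to 3. Its log2 fold change was -0.93 (SE 0.14, adjusted p = 0.0103 with limma over all genes tested), and the call ended without control 1, control 2 or control 3. The biliary markers Krt19, Krt7, Epcam, Sox9, Spp1, Cftr and Sctr each had at least 684 normalised counts in every library. Krt19 (log2 fold change -0.74) and Krt7 (-0.63) were lower in Klf5 LKO without overlap, and Cftr (0.58) and Sctr (0.78) higher without overlap. All 4 were called with DESeq2, where 1.60% of all genes tested were called lower and 0.882% higher, and Sctr was also called with limma. Some markers of other cell types had reads as well. The hepatocyte gene Alb had 6081 to 9205 normalised counts in Klf5 LKO and 7063 to 9665 in control. The macrophage gene Csf1r had 868 to 1455 in Klf5 LKO and 1248 to 1547 in control. The other listed hepatocyte markers were lower than Alb, and the other listed macrophage markers lower than Csf1r. Ttr averaged 2105 in Klf5 LKO and 1970 in control, Cyp2e1 33.2 and 32.2, and Apoa1 37.4 and 13.3. Cps1 averaged 3.55 and 2.07, and Serpina3k 5.08 and 0.307. Of the macrophage markers, Cd68 averaged 169 and 183, Lyz2 16.9 and 11.1, and C1qb 12.2 and 10.2. Adgre1, Marco and C1qa averaged at most 7.05 in either group.

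All 10 members lie on chromosome 3 (GENCODE M21, GRCm38, the assembly of mm10) in 2 groups. From S100a1 to S100a9 there are 8 of them between positions 90511034 and 90695721. S100a11 and S100a10 follow 2825 kb further on, between 93520488 and 93564643. A mean of at least 10 normalised counts, the filter for testing, was met by 8 of the 10. S100a8 and S100a9 were below it, and S100a4 met it only through its control libraries. Of the 10 members, 2 were called lower in Klf5 LKO (S100a6 and S100a14), 0 were called higher, 6 were tested and not called and 2 were not tested. Over all 13490 genes tested, 0.489% were called lower and 0.163% higher. Libraries of both groups did not overlap for 4 members (S100a6, S100a14, S100a10 and S100a16), each lower in Klf5 LKO, against 7.88% of all tested genes that were lower without overlap. Nothing is read from these counts, since the comparison had a part in choosing the members.

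**Figure D1:**
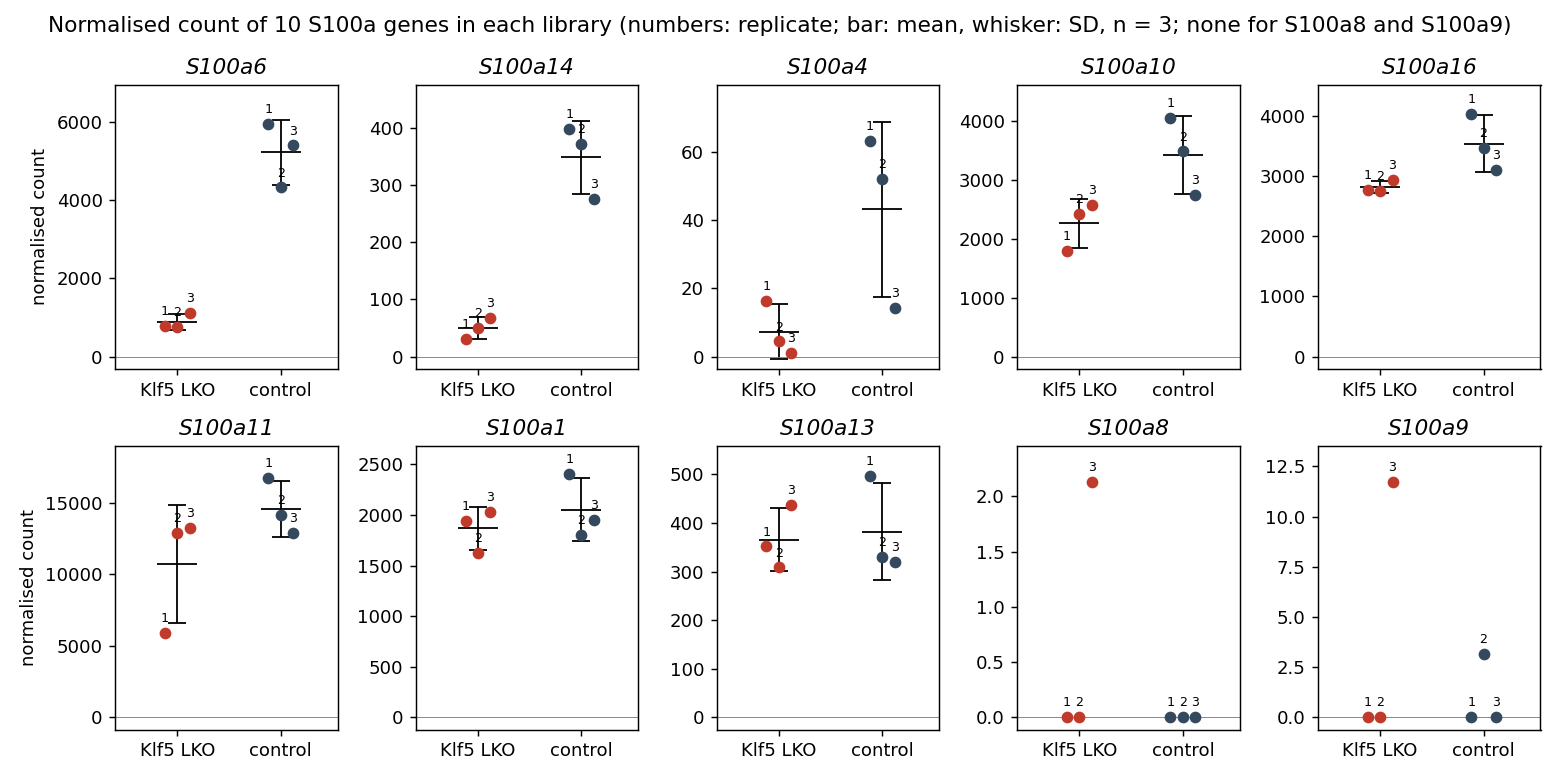
Normalised count (y axis, each panel on its own scale from 0) of the 10 S100a genes in the 3 Klf5 LKO libraries (red, left) and the 3 control libraries (blue, right), numbered by replicate, with the mean and SD of each group for the 8 tested genes. S100a6 lay between 760.2 and 1122 in Klf5 LKO and between 4319 and 5939 in control, while the libraries of both groups overlapped for S100a1 and S100a13.

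S100a6 (ENSMUSG00000001025, positions 90612882 to 90624181, plus strand) codes for calcyclin, a member that binds calcyclin-binding protein and annexins. It had normalised counts of 779, 760.2 and 1122 in Klf5 LKO libraries 1 to 3 and 5939, 4319 and 5393 in control libraries 1 to 3. Every Klf5 LKO library was far below every control library, and the means were 887 ± 204 in Klf5 LKO and 5217 ± 824 in control (SD, n = 3 each). The log2 fold change was -2.57 (SE 0.18, 95% interval -2.95 to -2.18), or 5.92-fold lower on the log2(value + 1) scale. S100a6 stayed called whichever of the 6 libraries was left out, with log2 fold changes from -2.75 to -2.47. These values rested on 948 to 1054 reads per library in Klf5 LKO and 2733 to 6458 in control, so counting error was small.

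S100a14 (ENSMUSG00000042306, positions 90526856 to 90528837, plus strand) codes for an epithelial S100 protein whose expression is often altered in carcinomas. Its normalised counts were 31.2, 50.7 and 68.1 in Klf5 LKO libraries 1 to 3 and 398, 371 and 276 in control libraries 1 to 3. The groups were well apart, with means of 50.01 ± 18.5 in Klf5 LKO and 349 ± 64.0 in control (SD, n = 3 each). This gave a log2 fold change of -2.83 (SE 0.35, 95% interval -3.60 to -2.06), or 7.10-fold lower. S100a14 rested on fewer reads, 38 to 68 reads per Klf5 LKO library and 235 to 433 per control library. Its call ended without control 2, where the log2 fold change was -2.77.

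In log2 values centred on each gene, the root mean square difference between S100a6 and S100a14 over the 6 libraries was 0.33 log2 units. This distance mostly restates 2 fold changes of like size, and within the groups the order of the libraries differed in part between the genes. Both genes were highest in control 1 and in Klf5 LKO 3. Among the control libraries S100a6 was lowest in library 2 and S100a14 in library 3. Among the Klf5 LKO libraries S100a14 was lowest in library 1, and S100a6 in library 2 (760.2) by a narrow margin to library 1 (779). Among the 3 nearest of all other tested genes were S100a14 (0.33) and Gjb5 (0.35) for S100a6, and S100a6 (0.33) and Gjb5 (0.34) for S100a14. Gjb5 codes for a gap junction protein of stratified epithelia and is a low gene here, with means of 11.5 normalised counts in Klf5 LKO and 61.2 in control. It was not called (adjusted p = 0.137, limma). By the same measure the other 6 tested members lay 1.02 log2 units or more from S100a6 and 1.13 or more from S100a14.

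In these bulk libraries, fewer cells of a type and less RNA per cell cannot be told apart. Markers of mesothelium, a cell layer that also makes S100a6, moved with the groups in part. The 5 listed markers (Msln, Upk3b, Upk1b, Gpm6a and Lrrn4) summed to 1817 to 2045 normalised counts in Klf5 LKO and 2833 to 3016 in control, and 1 of the 3 that could be tested, Msln, was called lower with limma, edgeR and limma-voom but not with DESeq2 (adjusted p = 0.1055). Msln had 0, 103 and 30.9 normalised counts in Klf5 LKO libraries 1 to 3 and 1165, 1302 and 1258 in control libraries 1 to 3. Gpm6a made up most of the sum in Klf5 LKO and did not follow Msln, with 1815 to 1998.5 in Klf5 LKO and 1534 to 1829 in control (log2 fold change 0.16, SE 0.13). Lrrn4 averaged 12.2 in Klf5 LKO and 6.10 in control, with no read in 2 libraries of each group. Upk3b had 2.46 to 15.97 in Klf5 LKO and 13.8 to 22.4 in control, from few reads and with overlap. Its means were 9.62 and 17.3 (log2 fold change -1.04, SE 0.92). Upk1b had no read in any Klf5 LKO library and 0 to 9 reads in control. The 8 stellate cell and fibroblast markers summed to 31.9 to 80.5 in Klf5 LKO and 4.74 to 51.8 in control, with Col1a2, Col3a1, Lrat and Des at 0 reads in all 6 libraries. The 5 endothelium markers summed to 39.4 to 122 in Klf5 LKO and 94.7 to 356 in control, with 0 called (limma). Of these, 4 had a negative log2 fold change, against 50.8% of all genes tested. Pecam1 had 0, 6.71 and 1.06 in Klf5 LKO libraries 1 to 3 and 37.7, 19.0 and 34.5 in control libraries 1 to 3. Cdh5 averaged 12.5 in Klf5 LKO and 11.8 in control. The part of mesothelial or endothelial transcripts in the S100a6 and S100a14 values was not tested.

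Promoter sequences came from RefSeq (GRCm38.p6), where 8 of the 10 members matched by symbol, all but S100a10 and S100a14. A letter pattern of the kind KLF factors bind, CCNCNCCC (GGGNGNGG on the other strand, overlapping matches counted), was searched in the 250 bases before each start. It was found before 4 of the 8 members (S100a6, S100a9, S100a11 and S100a16). By stretch, it was found in 5 of the 9 of these members and in 46.2% of all 32544 such stretches in the table. S100a6 is shown as a gene that fell, at chr3:90612644-90612893 (plus strand), and S100a16 as the tested neighbour with most matches and a small difference, at chr3:90537004-90537253 (plus strand). Both run 5′ to 3′ and end at the base before the start, and capitals mark the pattern.
S100a6: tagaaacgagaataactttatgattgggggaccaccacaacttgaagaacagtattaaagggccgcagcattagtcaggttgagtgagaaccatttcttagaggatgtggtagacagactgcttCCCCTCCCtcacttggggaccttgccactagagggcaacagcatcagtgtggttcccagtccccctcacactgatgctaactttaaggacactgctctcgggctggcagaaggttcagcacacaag
S100a16: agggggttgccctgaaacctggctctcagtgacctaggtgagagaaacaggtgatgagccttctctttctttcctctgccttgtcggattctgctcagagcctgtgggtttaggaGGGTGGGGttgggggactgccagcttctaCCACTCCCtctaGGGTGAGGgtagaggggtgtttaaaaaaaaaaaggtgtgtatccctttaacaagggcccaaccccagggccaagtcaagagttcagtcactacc
The S100a6 stretch held 1 match, starting 126 bases before the start, and the S100a16 stretch shown held 3. Another S100a16 start has its stretch at chr3:90540896-90541145 (plus strand), which held 2 and is not shown. A match of letters is a description and not a binding site.

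S100a10 (ENSMUSG00000041959, positions 93555080 to 93564643, plus strand) codes for the member that no longer responds to calcium and that joins annexin A2 in a complex at the membrane. The libraries gave normalised counts of 1797, 2415 and 2576 in Klf5 LKO libraries 1 to 3 and 4046, 3485 and 2738 in control libraries 1 to 3. All 3 Klf5 LKO libraries were below all 3 control libraries, but Klf5 LKO 3 and control 3 were close. The means were 2263 ± 411 in Klf5 LKO and 3423 ± 656 in control (SD, n = 3 each), with a log2 fold change of -0.60 (SE 0.17, 95% interval -0.98 to -0.22). It was not called with limma, edgeR (0.489% of all genes called lower) or limma-voom (0.437%), and was called with DESeq2 (1.60%). In the authors' deposited table, 3 of the 10 members (S100a6, S100a14 and S100a10) had an adjusted p under 0.05 with a lower value in Klf5 LKO, against 1.51% of the genes with an adjusted p there.

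Its partner Anxa2 (chromosome 9, 69453620 to 69491795) had normalised counts of 25526, 27932 and 26131 in Klf5 LKO libraries 1 to 3 and 43472, 40912 and 35434 in control libraries 1 to 3. The groups did not overlap, and the log2 fold change of -0.59 (SE 0.13, adjusted p = 0.0791, limma) was close to that of S100a10. DESeq2 gave adjusted p = 4.42e-05 and limma-voom 0.0445 for Anxa2, so its call depends on the test. Not divided by length, the S100a10 count was 7.04%, 8.65% and 9.86% of the Anxa2 count in Klf5 LKO libraries 1 to 3 and 9.31%, 8.52% and 7.73% in control libraries 1 to 3. These shares overlapped between the groups.

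S100a11 (ENSMUSG00000027907, positions 93520488 to 93526287, plus strand), calgizzarin, binds annexin A1 and had the highest level per length. Normalised counts of S100a11 were 5921, 12901 and 13227 in Klf5 LKO libraries 1 to 3 and 16708, 14164 and 12853 in control libraries 1 to 3. Klf5 LKO 1 stood alone at a low level, and the other Klf5 LKO libraries overlapped with control. Over all libraries the log2 fold change was -0.53 (SE 0.25, 95% interval -1.08 to 0.02), and -0.15 without Klf5 LKO 1, so 1 library carried most of the difference. Reads were plentiful in that library too, at 7207.

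S100a16 (ENSMUSG00000074457, positions 90537254 to 90543151, plus strand) is a widely expressed member. It had normalised counts of 2769.7, 2754 and 2935 in Klf5 LKO libraries 1 to 3 and 4035, 3468 and 3106 in control libraries 1 to 3. The groups did not overlap, by a narrow margin between Klf5 LKO 3 and control 3. With means of 2819.9 ± 100.4 in Klf5 LKO and 3536 ± 468 in control (SD, n = 3 each), the log2 fold change was -0.32 (SE 0.13, 95% interval -0.60 to -0.04).

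S100a1 (ENSMUSG00000044080, positions 90511034 to 90514392, minus strand), known from calcium handling in heart muscle, had normalised counts of 1942, 1628 and 2028 in Klf5 LKO libraries 1 to 3 and 2402, 1803 and 1955 in control libraries 1 to 3. The groups overlapped, and the log2 fold change was -0.13 (SE 0.15, 95% interval -0.46 to 0.19). S100a13 (ENSMUSG00000042312, positions 90514435 to 90524581, plus strand), which helps export fibroblast growth factor without a signal peptide, starts 42 bases past the S100a1 gene on the opposite strand. Its normalised counts were 352, 309 and 438 in Klf5 LKO libraries 1 to 3 and 498, 330.3 and 319 in control libraries 1 to 3. Its groups overlapped as well. The log2 fold change of -0.05 (SE 0.24, 95% interval -0.57 to 0.47) was positive without Klf5 LKO 2 (0.07) or control 1 (0.16), so S100a13 showed no settled direction.

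S100a4 (ENSMUSG00000001020, positions 90603771 to 90606045, plus strand) binds non-muscle myosin and is typical of fibroblasts and leukocytes. It had normalised counts of 16.4, 4.47 and 1.06 in Klf5 LKO libraries 1 to 3 and 63.5, 52.2 and 14.2 in control libraries 1 to 3. Klf5 LKO 1 and control 3 overlapped, and the single libraries held 1 to 20 reads in Klf5 LKO and 14 to 69 in control. The log2 fold change of -2.68 had an SE of 0.99 (95% interval -4.85 to -0.51) and ran from -3.47 without Klf5 LKO 1 to -1.94 without Klf5 LKO 3, so its size is poorly fixed. The gene Gm42674 overlaps S100a4 on the same strand, and reads of both could not be kept apart here.

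The leukocyte marker Ptprc had 97.8, 12.7 and 34.1 normalised counts in Klf5 LKO libraries 1 to 3 and 326, 258 and 16.3 in control libraries 1 to 3. Ptprc and S100a4 were thus both highest in control 1 and control 2, and within Klf5 LKO both were highest in library 1. Their order differed in the other Klf5 LKO libraries, where Ptprc was lowest in library 2 and S100a4 in library 3. The macrophage gene Csf1r was lowest in library 1 within Klf5 LKO (868), where S100a4 was highest. Within control, Csf1r was lowest in library 3 (1248), as S100a4 was. The 8 lymphocyte and NK cell markers summed to 16.4 to 107 in Klf5 LKO and 19.3 to 392 in control, and the 10 macrophage and Kupffer cell markers to 1112 to 1577 in Klf5 LKO and 1470.2 to 1658 in control, with Clec4f, Vsig4 and Cd5l at 0 reads throughout. Ptprc was the lymphocyte and NK cell marker that could be tested, and 4 of the 10 macrophage markers could be, with none called (limma, 0 also at an unadjusted p under 0.05 and with DESeq2, edgeR or limma-voom). The part of leukocyte transcripts in the S100a4 values was not tested.

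S100a8 and S100a9 code for the chains of calprotectin, the main cytosolic protein of neutrophils. S100a8 (ENSMUSG00000056054, positions 90668978 to 90670035) had 2 reads in Klf5 LKO 3 and 0 in the other 5 libraries. S100a9 (ENSMUSG00000056071, positions 90692632 to 90695721) had 11 reads in Klf5 LKO 3, 2 in control 2 and 0 elsewhere. A count of 0 allows up to 3 reads, which is 2.24 to 3.19 normalised counts in Klf5 LKO and 2.76 to 4.74 in control, so neither gene supports a comparison at this depth. Of 11 neutrophil markers 10 were in the table, and Mpo, Elane and Ngp had no read in any library. The listed neutrophil markers summed to 241 to 265 normalised counts in Klf5 LKO and 229 to 273 in control, mostly from Cxcr2.

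Divided by the length of the main transcript, S100a11 was the highest member in every library, and S100a8 and S100a9 were both at 0 in 4 of the 6 libraries. S100a6 averaged 1214 ± 279 normalised counts per kb in Klf5 LKO and 7137 ± 1127 in control (SD, n = 3 each). It took rank 5 of the 10 in each Klf5 LKO library and rank 2 in each control library, behind S100a11. The next levels in Klf5 LKO were S100a10 with 2623 to 3760 per kb, S100a1 with 2405 to 2996 and S100a16 with 2444 to 2605, whose ranges overlapped, so their order is not settled. In control S100a10 had 3997 to 5907 per kb, below S100a6 at 5909 to 8124 in every library, while S100a16 (2756 to 3580) and S100a1 (2664 to 3548) overlapped. By its mean S100a13 took rank 6 in both groups, S100a14 rank 7 and S100a4 rank 8, with S100a14 and S100a4 overlapping in Klf5 LKO. In Klf5 LKO 3, S100a4 had 2.14 per kb, S100a8 4.38 and S100a9 22.6, each from so few reads that their order is not settled. With all annotated exons in place of the main transcript, S100a6 again took rank 5 in Klf5 LKO and rank 2 in control by its mean.

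**Figure D2:**
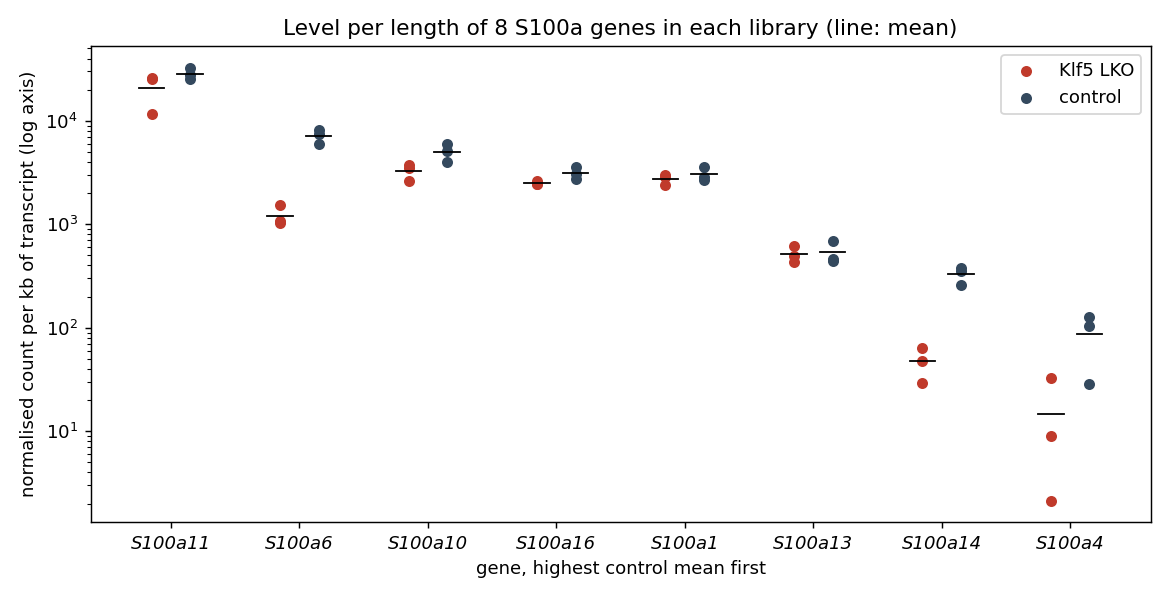
Normalised count per kb of main transcript (y axis, log scale) of the 8 tested S100a genes in each Klf5 LKO library (red, left of each pair) and each control library (blue, right), with lines at the means. S100a11 was highest in both groups at 20907 per kb in Klf5 LKO and 28522 in control, and S100a6, at 1214 per kb in Klf5 LKO and 7137 in control, differed most among the 5 highest genes.

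Along the chromosome the 2 called members did not lie next to each other. S100a14 stands 2.27 kb past S100a13, whose groups overlapped, and 8.42 kb before S100a16, which was lower without overlap and not called. S100a6 stands 84.0 kb further on, with S100a4 and S100a5 as nearest measured genes. S100a4, 6.84 kb before S100a6, was not called either. Its log2 fold change of -2.68 had an SE of 0.99, its groups overlapped and its reads were few, so its size is poorly fixed. Within 100 kb of S100a6, 5 genes in the table were tested, all of them members, and 1 was called (S100a14). Within 100 kb of S100a14, 9 were tested and 1 was called (S100a6). These counts restate the 2 calls given above, against 0.489% called lower over all genes tested, so nothing is read from them. The tested genes within 100 kb of S100a14 that are not of the family were Ints3, Ilf2, Snapin and Chtop. Chtop, a chromatin protein that takes part in messenger RNA export, had log2 fold changes of 0.04 (SE 0.13) and Ilf2, a double-stranded RNA-binding factor, 0.01 (SE 0.13). Snapin, a factor of vesicle docking, had 0.38 (SE 0.14, adjusted p = 0.339, limma) and Ints3, a subunit of the Integrator complex, -0.47 (SE 0.25, adjusted p = 0.542, limma).

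**Figure D3:**
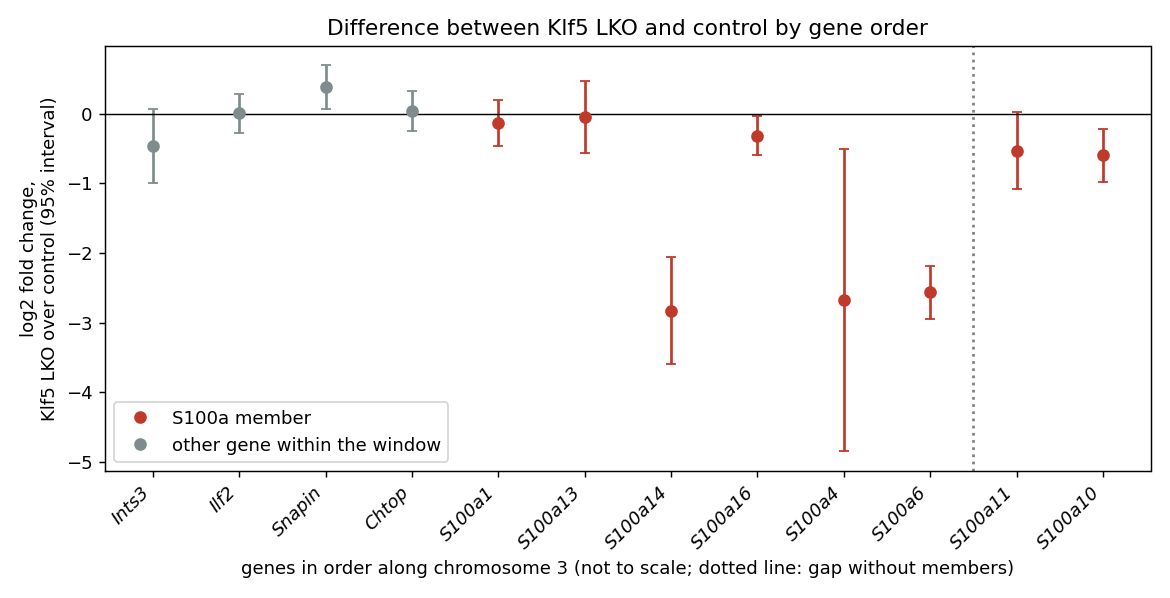
Log2 fold change of Klf5 LKO over control with its 95% interval (y axis) for tested S100a genes (red) and other tested genes within 100 kb of S100a6 or S100a14 (grey), in their order along chromosome 3 (x axis, not to scale). S100a14 at -2.83, S100a4 at -2.68 and S100a6 at -2.57 were the lowest, S100a4 with the widest interval, while S100a13 at -0.05 and S100a16 at -0.32 were closer to 0.

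Beyond the S100a members, S100b is the other S100 gene with a usable level. It codes for a protein best known from astrocytes and Schwann cells and lies on chromosome 10 (76253853 to 76261159, plus strand). Its normalised counts were 112, 163 and 179.9 in Klf5 LKO libraries 1 to 3 and 320.02, 329 and 348 in control libraries 1 to 3. The groups did not overlap, with means of 152 ± 35.5 in Klf5 LKO and 332 ± 14.6 in control (SD, n = 3 each). The log2 fold change of -1.16 (SE 0.26) did not pass with limma (adjusted p = 0.0815), edgeR (0.0929) or limma-voom (0.0812), and passed with DESeq2 (adjusted p = 0.00870). S100a3 had 0 reads in all 3 Klf5 LKO libraries and 1, 4 and 13 reads in control libraries 1 to 3. S100a5 had 6 reads in control 1 and none elsewhere, S100g had 0 to 3 reads per library in both groups, and S100a7a and S100z had none. Of 7 fused-type S100 genes, which code for large barrier proteins of skin, 6 were in the table, and Tchh was the one with reads (0, 5 and 0 in Klf5 LKO libraries 1 to 3, and 26, 7 and 18 in control libraries 1 to 3).

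Among 16 genes for binding partners and receptors of S100 proteins, all tested, 0 were called with limma, 4 had an unadjusted p under 0.05 (10.9% of all genes tested did), and 2 were called with DESeq2 (Anxa2 and Ahnak), 0 with edgeR and 1 with limma-voom (Anxa2). Their median log2 fold change was -0.16, against -0.01 over all genes tested. Ahnak, a giant scaffold protein that binds the S100a10 and annexin A2 complex, had means of 4477 ± 241 normalised counts in Klf5 LKO and 5977 ± 296 in control (SD, n = 3 each), and differed by -0.42 on the log2 scale (SE 0.11, adjusted p = 0.154, limma). Of 26 other EF-hand genes, such as the calmodulins and myosin light chains, 25 were tested and 0 were called with limma, DESeq2, edgeR or limma-voom, while 4 had an unadjusted p under 0.05, against the same 10.9% of all genes tested. Their median log2 fold change was -0.01. The smallest p-values among them belonged to the myosin light chain Myl12a, which differed by 0.31 on the log2 scale (SE 0.11, adjusted p = 0.297, limma), and the centrosome protein Cetn2, with -0.44 (SE 0.17, adjusted p = 0.373, limma).

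**Figure D4:**
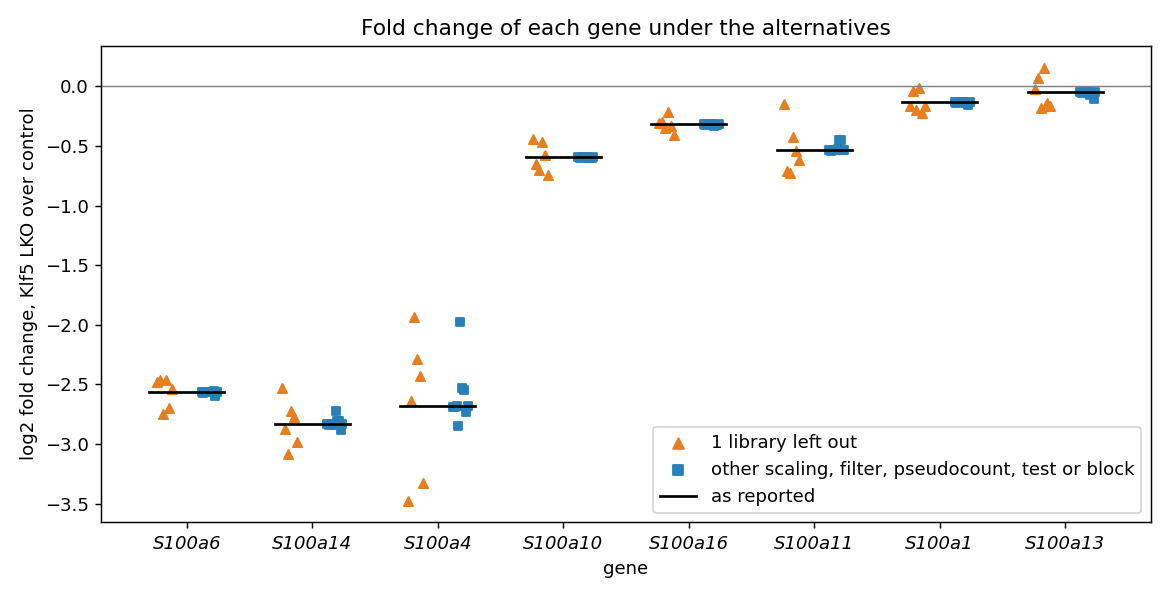
Log2 fold change of Klf5 LKO over control (y axis) for the 8 tested S100a genes (x axis) as reported (black line), with 1 library left out (orange triangles) and under the other alternatives (blue squares). S100a6 stayed between -2.75 and -2.47 with 1 library left out, S100a4 ran from -3.47 to -1.94, and S100a13 crossed 0.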

How the data were processed

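The members and gene lists were chosen with earlier results of these data known. Per the labels' protocols, a low-input cDNA kit was used on 4 ng of total RNA, with 10 and then 7 PCR cycles and no molecular identifiers, so amplification adds noise to low genes and floors cover counting error only. TopHat and Bowtie2, the mm10 genome and DESeq2 are named in the submitters' processing notes, while how reads were assigned to genes is not given in the sources used. The authors deposited a signal per gene and library, namely reads divided by a size factor. All values (100%) were whole multiples of 1 read within 0.001, so reads were recovered. A second table the authors deposited gives a mean signal, log2 fold changes, which look shrunken towards 0, a Wald score and p-values.

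Main fit: limma 3.58.1 (R 4.3.3, trend), two-sided, on log2(value + 1), for 13490 genes with a mean of at least 10, with Benjamini-Hochberg adjustment at 0.05. A pseudocount of 1 understates fold changes of low genes. edgeR 4.0.16, DESeq2 1.42.0 and limma-voom on recovered reads, other scalings, filters and pseudocounts, a replicate block and leaving out each library were alternatives. Named genes were Klf5, the members, for each list its called genes by p (or the 2 with the smallest p), tested genes within 100 kb of a called member and the 3 nearest in pattern. Not every gene under this rule is reported here. The fit was tested on simulated data.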

Additional observations from a re-analysis of the deposited data

How the results depend on the processing

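Of the 10 members, 2 were called lower (S100a6 and S100a14), and leaving out 1 library gave 1 to 2. Without control 2, S100a6 was the 1 called. The count over all genes, 88, became 335 with DESeq2 and ranged from 14 (without control 2) to 105 (without Klf5 LKO 1) with 1 library left out. It was 49 without Klf5 LKO 3, 24 without control 1 and 53 without control 3. The log2 fold change of Klf5 ranged from -0.98 to -0.84, and its call ended without control 1, 2 or 3 (adjusted p = 0.0625, 0.0681 and 0.0540). S100a13 ranged from -0.18 to 0.16, Ilf2 from -0.046 to 0.058 and Chtop from -0.036 to 0.13 with 1 library left out, and Ilf2 was -0.0027 with upper-quartile scaling. The cause of these changes was not tested. With the replicate block 110 genes and the same 2 members were called. Deviations of same-numbered libraries correlated at 0.18, -0.01 and 0.11 for numbers 1 to 3, and not every library correlated best with its own number, so the numbers were not taken to pair the samples. Besides Klf5, of 301 values of 19 single genes under 16 alternatives, 288 kept direction and side of the threshold. Depth limits S100a4, S100a8 and S100a9.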
